A study of Mus musculus with 16 samples.

Results

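Nitro-oleic acid (NO2-OA), added to a regimen of L-NAME and high-fat diet (HFD), was compared with that regimen alone in peripheral blood mononuclear cells (PBMCs) of C57BL/6N mice. The members are the libraries of both groups, chosen by their labels: 6 libraries with NO2-OA and 5 without, 11 of the 16 libraries of the series. Both groups were fed HFD for 15 weeks together with L-NAME, which blocks nitric oxide synthase, as a model of heart failure with preserved ejection fraction, and the NO2-OA group also received NO2-OA in the last 4 weeks. The other 5 libraries come from mice on regular chow, which enter the fit to estimate the spread and are given as a reference for single genes. Libraries are named HFD+L-NAME 1 to 5 and NO2-OA 1 to 6 by the numbers in the labels. No source used here gives a dose, an age, a sex or a vehicle, and nothing in the labels tells whether libraries come from separate mice, so that p-values speak of the spread between libraries, which may be technical.

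NO2-OA is an electrophilic nitro-fatty acid: it forms adducts with cysteines of proteins. The best known are KEAP1, whose modification releases the transcription factor NRF2 to activate antioxidant genes, and the p65 subunit of NF-kB, whose binding to inflammatory promoters is thereby reduced. Nitro-fatty acids have also been described to block palmitoylation of the interferon-inducing adaptor STING, to inhibit 5-lipoxygenase, soluble epoxide hydrolase and xanthine oxidoreductase, to bind PPARγ as partial agonists, and to activate the heat shock factor HSF1. Many of these acts are on proteins, so that a transcript of the protein itself need not move with the drug. PBMCs hold T, B and NK cells and monocytes, and blood preparations carry variable numbers of platelets, red cells and neutrophils.

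A single gene passed the test over all genes. Gm25131 (ENSMUSG00000064587), a small nuclear RNA of 151 bases in GENCODE and a pseudogene in RefSeq, was listed higher with NO2-OA. The call rests on 10 reads against 0 and was lost under several settings, given below. A second small nuclear RNA, Gm23054 (ENSMUSG00000064738, 162 bases), passed without the libraries that hold Timd4, described below, and is named after its values were seen. Both sequences are printed because the calls rest on them and on their length. They are read from GENCODE M21 transcripts of GRCm38, at chr15:81039643-81039793 (plus strand) and chr3:88862919-88863080 (plus strand), in lower case throughout.
Gm25131: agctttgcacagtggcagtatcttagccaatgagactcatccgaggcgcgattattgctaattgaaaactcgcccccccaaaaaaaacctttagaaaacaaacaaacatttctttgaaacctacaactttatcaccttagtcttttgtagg
Gm23054: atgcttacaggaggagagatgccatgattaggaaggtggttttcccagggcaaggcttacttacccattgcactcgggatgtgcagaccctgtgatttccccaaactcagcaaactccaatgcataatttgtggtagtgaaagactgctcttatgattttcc
Over the whole length, the closest of the 1382 other annotated small nuclear RNAs was 68.2% identical to Gm25131 (Gm25135) and 79.0% identical to Gm23054 (Gm22155). By this measure 0 exceeded 90% identity. Identity over a part of the sequence can be higher, and whether reads are shared with other small nuclear RNAs was not tested.

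Gm25131 was listed at 0 TPM (a transcript abundance scaled by gene length, with a total of 1000000 in each library) in all 5 HFD+L-NAME libraries and at 59.9 to 117 TPM in the 6 NO2-OA libraries, with a median of 74.5 TPM. The groups did not overlap, while the chow libraries spanned both, with 0 TPM in 2 of 5 and 59.0, 164 and 154 TPM in chow 2, 3 and 4. The mean was 84.5 ± 24.9 TPM (SD, n = 6) with NO2-OA. To be tested, a gene had to reach 1 TPM in 5 or more of the 16 libraries. Outside the NO2-OA group only chow 2, 3 and 4 did so for Gm25131. The gene was thus admitted to the test by the NO2-OA group, in which it was high. With no filter it was not called. How far its admission bears on the adjusted p-values below was not tested. On the log2(TPM + 1) scale the difference was 6.37 ± 0.96 (SE; limma, Benjamini-Hochberg adjusted p = 0.00952 over 16365 genes), and 6.37 ± 0.96 without the Timd4 libraries (adjusted p = 0.00668).

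These values stood for few reads. Whole read numbers recovered from the steps of the TPM values were 3, 1, 1, 1, 2 and 2 in NO2-OA 1 to 6, 10 reads in 78.7 M (M for 1000000), and 0 reads in 51.5 M over the HFD+L-NAME libraries. Set against a floor of 3 reads over the HFD+L-NAME group, the gene was 2.18-fold higher per read sequenced with NO2-OA. This takes the 10 reads with NO2-OA as exact, so it is no lower bound of the fold. Because the deposited TPM divided reads by an effective length far below the annotated one for short RNAs, 1 read of Gm25131 was worth 22.4 to 80.9 TPM, depending on the library. For comparison, 1 read of the chemokine gene Cxcl2 was worth 0.0234 to 0.0907 TPM. On recovered reads, limma-voom gave a log2 difference of 1.72 for Gm25131 and called 0 genes.

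Gm23054 was at 16.5 TPM in HFD+L-NAME 1 and at 0 TPM in HFD+L-NAME 2 to 5. With NO2-OA it ranged from 6.90 to 31.5 TPM with a median of 13.6 TPM. The only HFD+L-NAME library that held it is one of those with Timd4 and lay within the NO2-OA range. The log2 difference was 3.10 ± 0.59 (limma, adjusted p = 0.143) with all libraries and 3.93 ± 0.45 (adjusted p = 0.00013) without the Timd4 libraries. Reads again were few, 11 with NO2-OA and 2 without, and 1 read was worth 3.45 to 12.4 TPM.

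**Figure D1:**
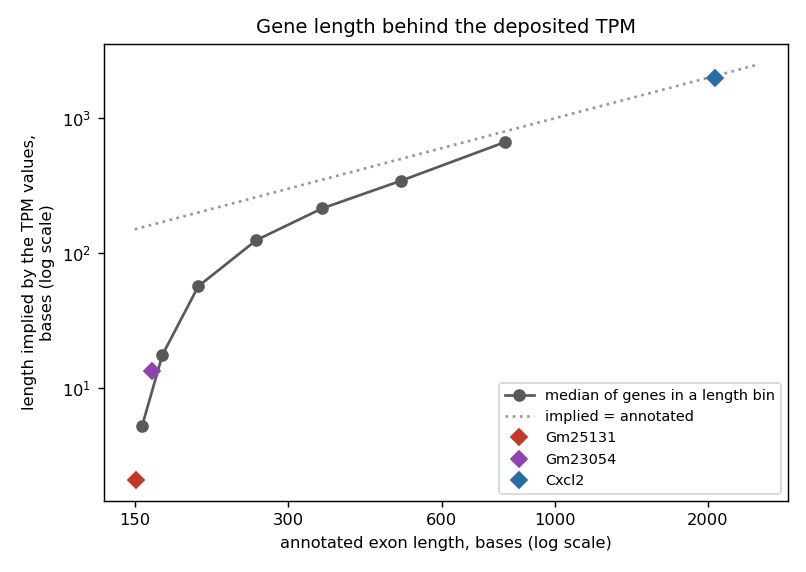
Length that the deposited TPM implies, in bases, against the annotated length, in bases, both on log axes, as the median of each length bin (circles) and for Gm25131, Gm23054 and Cxcl2 (diamonds), with a dotted line where both are equal. Longer genes approach that line, and the genes of 150 to 160 bases reach a median implied length of 5.15 bases, where 1 read is worth many TPM.

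The gap between annotated and implied length bore on short genes. Of 14187 genes over 2000 bases, 99.2% had an implied length within 1.5-fold of the annotated one. Among the 22 genes of 150 to 160 bases the median implied length was 5.15 bases, and among the 63 genes of 160 to 180 bases it was 17.5 bases. In both bins the annotated length exceeded the implied one by a median of 148.8 and 148.5 bases.

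Few genes separated the groups. Of 16365 genes with at least 1 TPM in at least 5 of the 16 libraries, 1 was called higher (0.00611%) and 0 lower (0%), and without the Timd4 libraries 2 were called higher (0.0122%) and 0 lower (0%). At an unadjusted p under 0.05 in limma, 79 genes were higher (0.483%) and 76 lower (0.464%), together fewer than the 818 that a flat distribution of p would give. Without the Timd4 libraries 50 were higher (0.306%) and 208 lower (1.27%). The 2 groups did not overlap at all in 3 genes that were higher (0.0183%), Gm25131, Gm33994 and Gm11407, and in 3 that were lower (0.0183%), Gm47238, Gm15644 and Ppp1r2-ps1. Besides Gm25131, each of these non-coding genes and pseudogenes had a group mean under 5 TPM in both groups.

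Libraries of the same group differed in composition, and these values stand beside the genes below. HFD+L-NAME 1 and 5 held the phosphatidylserine receptor Timd4, a gene of resident peritoneal macrophages, at 3.87 and 7.16 TPM, and it was listed at 0 in the other 9 libraries. Values without the Timd4 libraries leave out these and chow 1 and 2. Protein-coding genes took 15.1% of TPM in HFD+L-NAME 5 and 15.9% in NO2-OA 2, against 39.6% to 56.4% in the other 9. Recovered reads ran from 4.94 M in HFD+L-NAME 5 to 25.48 M in NO2-OA 1, and the group means did not differ beyond the spread (exact permutation test, two-sided, p = 0.5). The numbers in the library names have a gap, and HFD+L-NAME 1 and 5 and NO2-OA 2 lie above it (called run 2 here, the others run 1), although no label says what the numbers stand for. Within HFD+L-NAME the side of this gap and Timd4 cannot be told apart. The median log2 difference over all genes was 0.08, with 10583 genes above 0, and -0.10 without the Timd4 libraries, with 4876 above 0. Rescaling TPM to the median of ratios moved it to -0.03, and rescaling without haemoglobin and mitochondrial genes moved it to 0.18. With 1 library left out it ran from -0.08 without HFD+L-NAME 5 to 0.22 without HFD+L-NAME 4. List medians are to be read against these shifts. Apart from Gm25131 and Gm23054, each gene named below had an adjusted p = 1.00 in limma, with and without the Timd4 libraries, and the p-values given are unadjusted.

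The cells of the preparation were visible in their markers, and marker levels varied widely within both groups. Haemoglobin genes took 11.7, 3.32, 7.28, 1.55 and 0.882% of TPM in HFD+L-NAME 1 to 5, and 30.7, 1.10, 9.72, 1.36, 5.29 and 17.5% in NO2-OA 1 to 6. The highest 2 were NO2-OA 1 and 6, the others overlapped, and the means did not differ beyond the spread (exact permutation test, two-sided, p = 0.335). The summed level of 20 platelet genes was 10743, 22162, 54508, 10805 and 2535 TPM in HFD+L-NAME 1 to 5, and 9191, 558, 7367, 20918, 34618 and 15928 TPM in NO2-OA 1 to 6. HFD+L-NAME 3, NO2-OA 5 and HFD+L-NAME 2 were high and NO2-OA 2 and HFD+L-NAME 5 low. T cell marker sums ran from 200 to 639 TPM without and from 261 to 513 TPM with NO2-OA, and B cell sums from 1069 to 4057 and from 870 to 4347 TPM, so lymphocytes were present in every library. In these bulk libraries fewer cells of a type and less RNA per cell cannot be told apart.

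**Figure D2:**
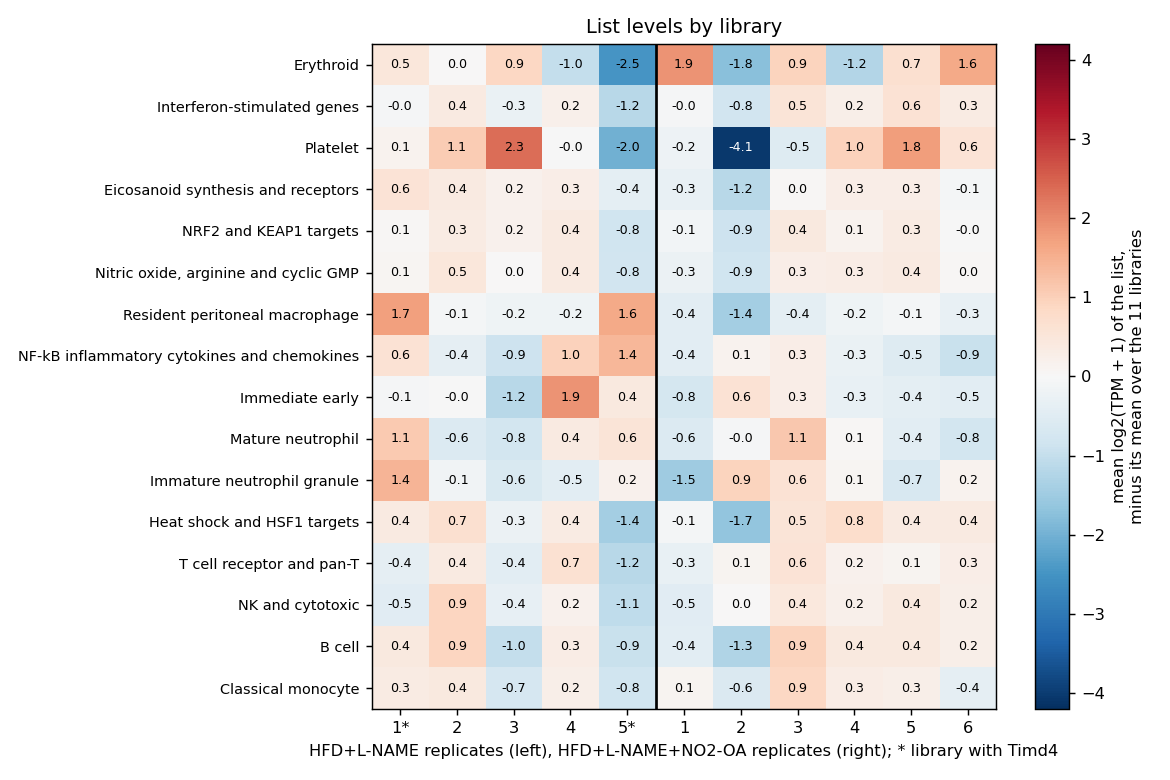
Mean level of 16 gene lists in each of the 11 libraries, as deviation from the mean over the 11 libraries in log2(TPM + 1), with libraries marked * holding Timd4. Platelet and erythroid lists vary most, and both groups hold libraries with high and with low values.

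NRF2 is the transcription factor that KEAP1 holds in check, and it drives genes of glutathione synthesis, NADPH supply and haem and iron handling. Of 33 listed NRF2 and KEAP1 genes 30 were tested, and 0 were called in either direction. Of the 30 members 13 lay above 0, with a median log2 difference of -0.07 against 0.08 over all genes, and without the Timd4 libraries 6 lay above 0, with a median of -0.29 against -0.10. None had an unadjusted p under 0.05, where 0.483% of all genes were higher at that limit.

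Keap1 (ENSMUSG00000003308), the sensor that nitro-fatty acids alkylate, was at 6.30, 7.90, 3.95, 6.59 and 1.45 TPM in HFD+L-NAME 1 to 5 and at 2.53 to 10.1 TPM with NO2-OA (median 6.66). The groups overlapped, with a log2 difference of 0.31 ± 0.40, and 0.02 ± 0.41 without the Timd4 libraries. Nfe2l2 (ENSMUSG00000015839), which encodes NRF2, had medians of 29.7 TPM in both groups and a difference of -0.08 ± 0.36 (-0.32 ± 0.44 without Timd4 libraries).

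Hmox1 (ENSMUSG00000005413), haem oxygenase 1, was at 52.4, 51.3, 27.5, 47.9 and 26.0 TPM in HFD+L-NAME 1 to 5 and at 25.7 to 87.5 TPM with NO2-OA (median 47.3). Only NO2-OA 3 and 4 exceeded every HFD+L-NAME library. The difference was 0.27 ± 0.45, and 0.22 ± 0.48 without the Timd4 libraries. Nqo1 (ENSMUSG00000003849), the quinone reductase most used as an NRF2 reporter gene, was low, with medians of 1.60 TPM without and 2.22 TPM with NO2-OA and a difference of 0.13 ± 0.42 (-0.29 ± 0.47 without Timd4 libraries).

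Gclm (ENSMUSG00000028124), the modifier subunit of glutamate-cysteine ligase, was at 28.4, 60.7, 104, 28.6 and 6.53 TPM in HFD+L-NAME 1 to 5 and at 4.02 to 84.1 TPM with NO2-OA (median 48.4). It shared its extremes with the platelet genes, with HFD+L-NAME 3 and NO2-OA 5 highest and NO2-OA 2 and HFD+L-NAME 5 lowest. The low libraries, which had the least protein-coding TPM, were also lowest in the interferon-stimulated, NRF2, heat shock and nitric oxide lists. The low end is thus not particular to platelet genes. The difference of Gclm was 0.09 ± 0.65, and -0.69 ± 0.67 without the Timd4 libraries. The ferritin chains Fth1 and Ftl1 and the pentose phosphate enzyme Taldo1 were likewise highest in HFD+L-NAME 3 and lowest in NO2-OA 2, at 2270 and 187 TPM for Fth1. Their differences were -0.35 ± 0.54, -0.33 ± 0.52 and -0.34 ± 0.63, and without the Timd4 libraries -1.03 ± 0.61, -0.87 ± 0.62 and -1.12 ± 0.66.

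Slc48a1, which encodes a haem transporter, and Blvrb, biliverdin reductase B, were highest in NO2-OA 1 and 6, the libraries with the most haemoglobin. Slc48a1 (ENSMUSG00000081534) was at 63.0 and 56.5 TPM there, against 4.51 to 40.0 TPM in HFD+L-NAME, and Blvrb (ENSMUSG00000040466) at 32.6 and 31.7 TPM against 4.05 to 21.8 TPM. The differences were 0.64 ± 0.56 and 0.55 ± 0.52, and 0.25 ± 0.62 and 0.31 ± 0.61 without the Timd4 libraries. Slc7a11 (ENSMUSG00000027737), the cystine transporter, lay the other way at -0.64 ± 0.47 (-0.29 ± 0.53 without Timd4 libraries), with its highest levels, 12.6, 9.31 and 8.03 TPM, in HFD+L-NAME 4 and 5 and NO2-OA 2. The part of platelet and red cell RNA in these values was not tested.

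**Figure D3:**
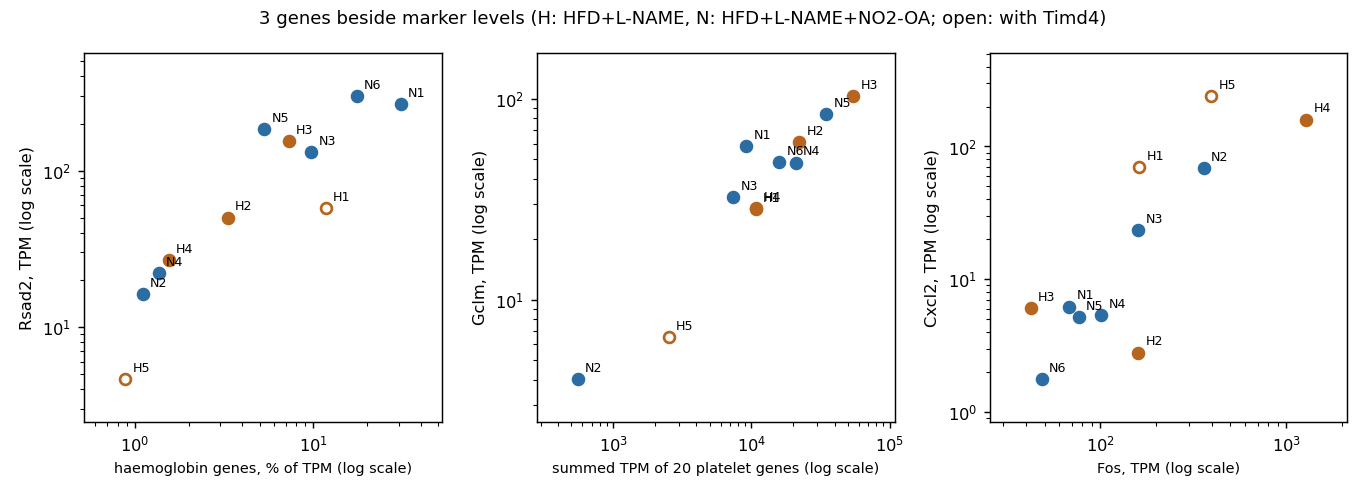
Level of Rsad2 in TPM against the haemoglobin share of TPM in percent, of Gclm in TPM against the summed TPM of 20 platelet genes, and of Cxcl2 in TPM against Fos in TPM, on log axes. Each point is a library, labelled H for HFD+L-NAME or N for NO2-OA with its number, and open where Timd4 is held. In each panel libraries of both groups intermingle, with N1 and N6 highest for Rsad2, H3 and N5 for Gclm and H5 and H4 for Cxcl2.

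NF-kB is the transcription factor that induces cytokines and chemokines in myeloid cells, and its p65 subunit is a described target of nitro-fatty acids. Of 23 tested NF-kB cytokine and chemokine genes 0 were called, 21 lay below 0 and the median log2 difference was -0.60, and 3 had an unadjusted p under 0.05, all lower, where 0.464% of all genes were lower. Without the Timd4 libraries 19 lay below 0 with a median of -0.20, and 0 had an unadjusted p under 0.05. In that fit 11489 of all 16365 genes lay below 0, with a median of -0.10. The list median stayed below 0 under the 3 other scalings, between -0.75 and -0.50, and with 1 library left out it ran from -0.96 without HFD+L-NAME 3 to -0.33 without HFD+L-NAME 5. The list of NF-kB signalling and feedback genes, 21 tested, did not go with it: 17 lay above 0 with a median of 0.17, and without the Timd4 libraries 8 with a median of -0.08.

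The promoters of the neutrophil chemokine genes Cxcl1 and Cxcl2 are shown. Both were among the 3 genes of the list with an unadjusted p under 0.05, and the other, Lif, is not among the genes with a match. Each holds 2 matches to an NF-kB motif, GGGNNTTTCC or its reverse GGAAANNCCC, in capitals. The 250 bases before each start are from RefSeq GRCm38.p6, both on the plus strand, at chr5:90890995-90891244 for Cxcl1 and chr5:90903649-90903898 for Cxcl2.
Cxcl1: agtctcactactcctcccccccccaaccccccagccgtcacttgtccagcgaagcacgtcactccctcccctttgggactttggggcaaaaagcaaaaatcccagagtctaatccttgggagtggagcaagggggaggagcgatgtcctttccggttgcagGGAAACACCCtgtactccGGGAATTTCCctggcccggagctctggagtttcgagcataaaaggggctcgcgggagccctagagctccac
Cxcl2: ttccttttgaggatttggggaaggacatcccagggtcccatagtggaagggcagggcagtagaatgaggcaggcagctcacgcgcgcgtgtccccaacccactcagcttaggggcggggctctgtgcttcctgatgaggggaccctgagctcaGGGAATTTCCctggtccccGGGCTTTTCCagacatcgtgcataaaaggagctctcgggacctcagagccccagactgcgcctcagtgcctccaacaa
The matches begin 89 and 71 bases before the start of Cxcl1 and 97 and 78 bases before that of Cxcl2. Of 32851 promoters of this length 464 (1.41%) hold the motif on either strand, and of the 15 tested NF-kB cytokine and chemokine genes with a promoter entry 5 did, the others being Ccl9, Csf1 and Il1rn. The first share counts promoters and the second genes, so their units differ.

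Cxcl2 (ENSMUSG00000058427) was at 69.5, 2.802, 6.07, 160 and 241 TPM in HFD+L-NAME 1 to 5 and at 1.76 to 68.8 TPM with NO2-OA (median 5.82). The groups overlapped: HFD+L-NAME 1, 4 and 5 and NO2-OA 2 were high, and HFD+L-NAME 2 and 3 lay among the other NO2-OA libraries. The difference was -1.83 ± 0.87 (limma, unadjusted p = 0.0462), and -0.63 ± 0.90 without the Timd4 libraries (unadjusted p = 0.489). Cxcl1 (ENSMUSG00000029380) was at 8.58, 0, 0, 1.92 and 71.5 TPM in HFD+L-NAME 1 to 5, at 0.971 TPM in NO2-OA 2 and at 0 in the other 5 NO2-OA libraries. The same libraries thus held it, and the difference moved from -2.03 ± 0.86 (unadjusted p = 0.0254) to -0.35 ± 0.32 (unadjusted p = 0.289) without the Timd4 libraries.

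Lif (ENSMUSG00000034394), a cytokine of the interleukin 6 family, was at 1.28, 0.277, 0.245, 2.32 and 6.05 TPM in HFD+L-NAME 1 to 5 and at 0.0816 to 1.57 TPM with NO2-OA (median 0.130). NO2-OA 2 alone reached the level of HFD+L-NAME 1, and the other 5 NO2-OA libraries lay below all HFD+L-NAME libraries. The difference was -0.92 ± 0.42 (limma, unadjusted p = 0.037), and -0.44 ± 0.34 without the Timd4 libraries. Il1b (ENSMUSG00000027398), interleukin 1 beta, ran from 24.1 to 157 TPM without and from 12.0 to 99.2 TPM with NO2-OA, a difference of -0.73 ± 0.61 (-0.10 ± 0.57 without Timd4 libraries).

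Ccrl2 (ENSMUSG00000043953), an atypical chemerin receptor of activated myeloid cells, was at 15.2, 3.50, 3.45, 28.3 and 50.9 TPM in HFD+L-NAME 1 to 5 and at 2.14 to 10.0 TPM with NO2-OA (median 3.16). Its difference was -1.52 ± 0.56 (limma, unadjusted p = 0.0126), and -0.80 ± 0.55 without the Timd4 libraries (unadjusted p = 0.16). Rela (ENSMUSG00000024927), which encodes p65, had medians of 29.6 and 37.8 TPM and a difference of 0.18 ± 0.42. Nfkbia (ENSMUSG00000021025), the inhibitor that NF-kB itself induces, was at 820, 353 and 314 TPM in HFD+L-NAME 4, NO2-OA 2 and HFD+L-NAME 5 and at 67.3 to 203 TPM elsewhere, a difference of -0.48 ± 0.57 (-0.44 ± 0.64 without Timd4 libraries).

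The same 3 libraries held the most Fos (ENSMUSG00000021250), an immediate early gene induced within minutes of stimulation or of handling. Fos was at 162, 160, 42.2, 1278 and 395 TPM in HFD+L-NAME 1 to 5 and at 48.2 to 360 TPM with NO2-OA (median 88.9). NO2-OA 2 was the highest NO2-OA library. Of 25 immediate early genes 21 lay below 0 with a median of -0.20, and without the Timd4 libraries 23 with a median of -0.38. In the fit without the Timd4 libraries 11489 of all 16365 genes lay below 0, with a median of -0.10. With 1 library left out the list median ran from -0.55 without HFD+L-NAME 3 to 0.19 without HFD+L-NAME 4. The medians over all genes were -0.02 and 0.22 there. The part of cell handling in the chemokine values was not tested.

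**Figure D4:**
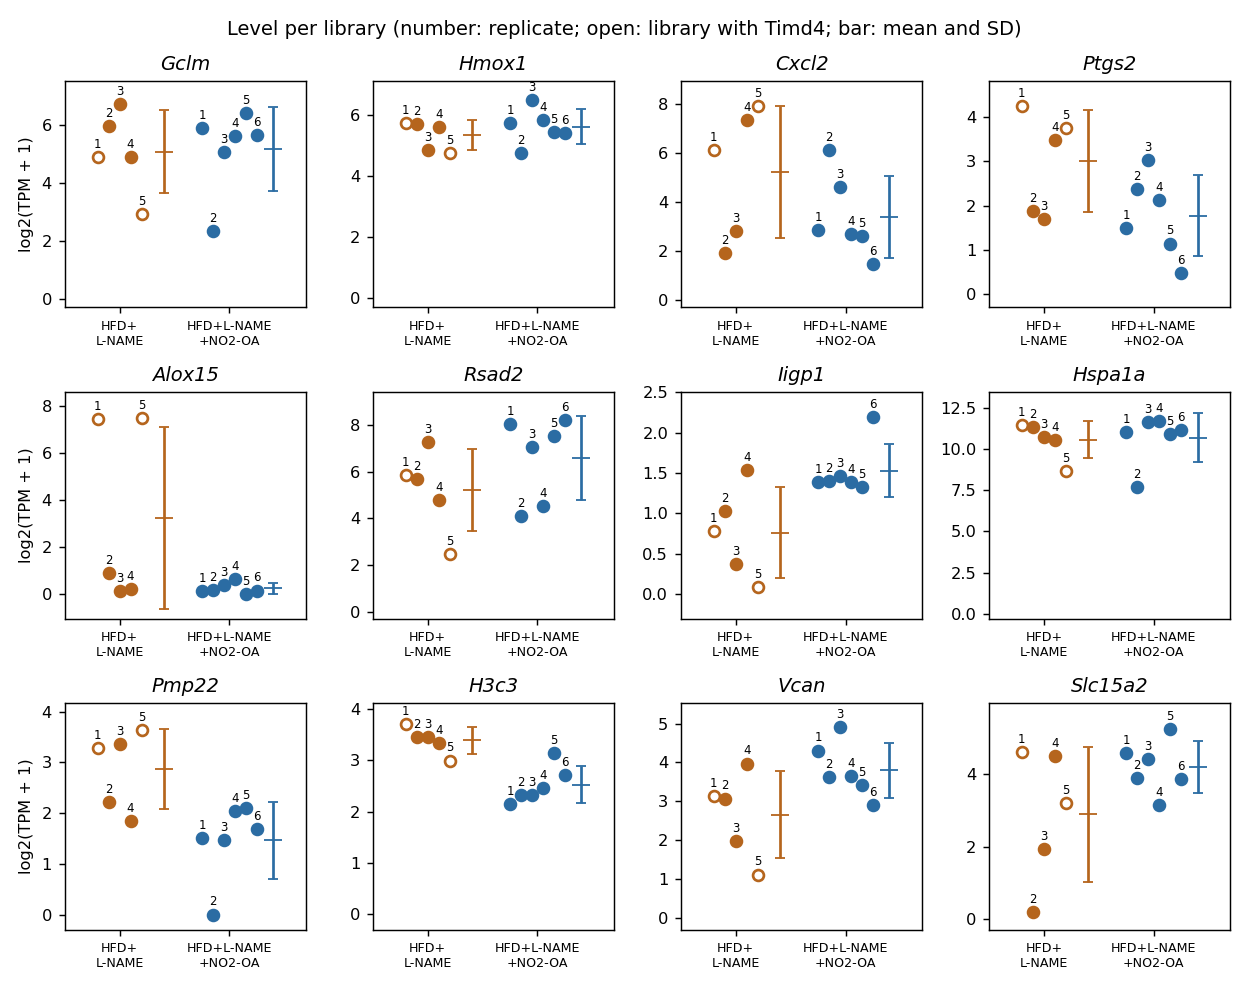
Level of 12 genes in log2(TPM + 1) in each library of both groups, with open points for the libraries that hold Timd4 and bars for the mean and SD. For Cxcl2, Ptgs2 and Alox15 the open points are among the highest of the HFD+L-NAME group, whereas for Pmp22 and H3c3 most NO2-OA points lie below the HFD+L-NAME points.

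Lipoxygenases and cyclooxygenases turn arachidonic acid into leukotrienes, lipoxins and prostaglandins, and 5-lipoxygenase is a described enzyme target of nitro-fatty acids. Of 21 tested eicosanoid genes 0 were called, 12 lay below 0 with a median of -0.25 against 0.08 over all genes, and 3 had an unadjusted p under 0.05, all lower, where 0.464% of all genes were lower. Without the Timd4 libraries 15 lay below 0 with a median of -0.33 against -0.10, and 0 had an unadjusted p under 0.05. Without NO2-OA 2 the median was 0.14, where that over all genes was 0.19.

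Alox15 (ENSMUSG00000018924), a lipoxygenase of resident peritoneal macrophages, was at 173 and 175 TPM in HFD+L-NAME 1 and 5 and at no more than 0.820 TPM in the remaining 9. Both high libraries are those with Timd4. Its difference was accordingly -2.99 ± 1.23 (limma, unadjusted p = 0.0227) with them and -0.17 ± 0.28 (unadjusted p = 0.541) without them. Ltc4s (ENSMUSG00000020377), leukotriene C4 synthase, was at 14.8, 1.34, 0.792, 12.1 and 18.7 TPM in HFD+L-NAME 1 to 5 and at 0.529 to 4.71 TPM with NO2-OA (median 1.44). HFD+L-NAME 4, which lacks Timd4, was near the 2 Timd4 libraries. The difference was -1.35 ± 0.61 (unadjusted p = 0.0362 in limma), and -0.46 ± 0.49 without the Timd4 libraries.

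Ptgs2 (ENSMUSG00000032487), the inducible cyclooxygenase, was at 18.04, 2.66, 2.24, 10.1 and 12.5 TPM in HFD+L-NAME 1 to 5 and at 0.395 to 7.23 TPM with NO2-OA (median 2.60). HFD+L-NAME 1, 4 and 5 exceeded every NO2-OA library, and HFD+L-NAME 2 and 3 lay within the NO2-OA range. The difference was -1.23 ± 0.50 (limma, unadjusted p = 0.0199), and -0.57 ± 0.50 without the Timd4 libraries (unadjusted p = 0.267). Alox5 (ENSMUSG00000025701), 5-lipoxygenase itself, had medians of 2.28 and 1.62 TPM, and its difference of -0.45 ± 0.42 turned to 0.13 ± 0.43 without the Timd4 libraries.

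Alox12 (ENSMUSG00000000320), the platelet lipoxygenase, and Alox5ap (ENSMUSG00000060063), the activating protein of 5-lipoxygenase, were abundant and had the same extremes as the platelet sum. Alox12 was at 262, 489, 1081, 223 and 46.6 TPM in HFD+L-NAME 1 to 5 and at 10.3 to 734 TPM with NO2-OA (median 276). HFD+L-NAME 3 and NO2-OA 5 were highest and NO2-OA 2 lowest, with a low end shared with lists outside platelets, as for Gclm. The differences were -0.53 ± 0.83 for Alox12 and -0.25 ± 0.59 for Alox5ap, and -1.39 ± 0.89 and -0.91 ± 0.65 without the Timd4 libraries. Ephx2, soluble epoxide hydrolase, did not pass the filter on low values.

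STING is the adaptor through which cGAS and other sensors of nucleic acids induce type I interferon, and interferon-stimulated genes are its far readout. Of 52 tested interferon-stimulated genes 0 were called, 48 lay above 0 with a median of 0.33 against 0.08 over all genes, and 2 had an unadjusted p under 0.05, both higher, where 0.483% of all genes were higher. Without the Timd4 libraries 30 lay above 0 with a median of 0.07 against -0.10, and 0 had an unadjusted p under 0.05. The 3 other scalings gave medians of 0.19 to 0.43, and leaving out 1 library gave 0.07 without HFD+L-NAME 5 to 0.49 without HFD+L-NAME 2. Of 24 tested cGAS-STING and sensor genes 17 lay above 0 with a median of 0.15, and 9 with a median of -0.03 without the Timd4 libraries.

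The promoters of Rsad2 and Tgtp1 are shown because Rsad2 had the largest difference of the list and Tgtp1 was one of the 2 with an unadjusted p under 0.05. Capitals mark the match to the core of the interferon-stimulated response element, TTTCNNTTTC or its reverse GAAANNGAAA, in the 250 bases before the start in RefSeq GRCm38.p6. Rsad2 lies on the minus strand at chr12:26456453-26456702 and Tgtp1 on the minus strand at chr11:48992247-48992496.
Rsad2: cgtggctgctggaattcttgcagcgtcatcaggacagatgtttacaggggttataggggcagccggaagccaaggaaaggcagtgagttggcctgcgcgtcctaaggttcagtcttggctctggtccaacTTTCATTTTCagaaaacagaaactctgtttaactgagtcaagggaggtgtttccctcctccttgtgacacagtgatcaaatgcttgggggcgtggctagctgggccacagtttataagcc
Tgtp1: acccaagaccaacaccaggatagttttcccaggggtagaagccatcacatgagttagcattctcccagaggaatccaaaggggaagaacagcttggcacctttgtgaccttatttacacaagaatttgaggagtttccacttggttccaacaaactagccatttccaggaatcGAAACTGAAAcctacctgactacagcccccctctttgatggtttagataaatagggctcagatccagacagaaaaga
The match begins 120 bases before the start of Rsad2 and 77 bases before that of Tgtp1. The motif is held by 978 of 32851 promoters (2.98%), and by 23 of the 39 tested interferon-stimulated genes with a promoter entry. Iigp1, the other gene under that limit of p, is not among these 23. The share over all counts promoters and that of the list counts genes, so the units differ.

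Rsad2 (ENSMUSG00000020641), the antiviral enzyme viperin, was at 57.7, 49.95, 155, 26.8 and 4.61 TPM in HFD+L-NAME 1 to 5 and at 267, 16.3, 132, 22.1, 183 and 301 TPM in NO2-OA 1 to 6. NO2-OA 6, 1 and 5 were highest, NO2-OA 2, 3 and 4 lay within the HFD+L-NAME range, and NO2-OA 6 and 1 were also the libraries with the most haemoglobin. The difference was 1.36 ± 0.87 (limma, unadjusted p = 0.131), and 0.67 ± 0.86 without the Timd4 libraries (unadjusted p = 0.446). Red cell genes lay higher in the same direction: all 19 tested erythroid genes were above 0 with a median of 0.91, and 15 with a median of 0.59 without the Timd4 libraries. Their part in the Rsad2 difference was not tested.

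Iigp1 (ENSMUSG00000054072), an interferon-inducible GTPase that attacks parasite vacuoles, was at 0.718, 1.05, 0.302, 1.90 and 0.0633 TPM in HFD+L-NAME 1 to 5 and at 1.51 to 3.56 TPM with NO2-OA (median 1.63). Only HFD+L-NAME 4 reached the NO2-OA range, and NO2-OA 6 stood above it. The difference was 0.76 ± 0.28 (limma, unadjusted p = 0.0107), and 0.54 ± 0.32 without the Timd4 libraries (unadjusted p = 0.105). Tgtp1 (ENSMUSG00000078922), a GTPase of the same family whose reads can be shared with the near-identical Tgtp2, was at 3.90, 5.37, 3.78, 9.86 and 1.29 TPM in HFD+L-NAME 1 to 5 and at 6.62 to 12.6 TPM with NO2-OA (median 8.04). Again HFD+L-NAME 4 alone overlapped. The difference was 0.88 ± 0.35 (unadjusted p = 0.0198 in limma), and 0.46 ± 0.39 without the Timd4 libraries.

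Gbp5 (ENSMUSG00000105504), a guanylate-binding protein, had medians of 2.58 and 3.31 TPM and a difference of 0.55 ± 0.33 (0.46 ± 0.37 without Timd4 libraries). The abundant members Ifitm3 and Ifi27l2a lay closer to 0 than Rsad2. Ifitm3 (ENSMUSG00000025492), a block to virus entry, ran from 138 to 594 TPM without and from 89.8 to 689 TPM with NO2-OA, a difference of -0.08 ± 0.47, and Ifi27l2a (ENSMUSG00000079017) differed by 0.21 ± 0.44. Sting1 (ENSMUSG00000024349) was at 16.1, 16.1, 5.73, 13.8 and 4.95 TPM in HFD+L-NAME 1 to 5 and at 7.85 to 29.7 TPM with NO2-OA (median 14.2). The overlap was wide, and the difference of 0.46 ± 0.42 was 0.36 ± 0.46 without the Timd4 libraries. Cgas (ENSMUSG00000032344) differed by 0.31 ± 0.27 (0.18 ± 0.34).

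PPARγ is a nuclear receptor of fatty acids. Of 24 tested PPAR target and fatty acid genes 12 lay above 0 and 12 below, with a median of 0.02, and -0.12 without the Timd4 libraries, 0 were called and 0 had an unadjusted p under 0.05. Pparg (ENSMUSG00000000440) was at 3.79, 5.91, 2.12, 3.97 and 1.92 TPM in HFD+L-NAME 1 to 5 and at 0.939 to 4.16 TPM with NO2-OA (median 3.69). NO2-OA 2 lay below all other libraries. The difference was -0.10 ± 0.32, and -0.24 ± 0.38 without the Timd4 libraries. Scd1, the stearoyl-CoA desaturase (ENSMUSG00000037071), differed by 0.20 ± 0.48, and Acsl1, which activates long-chain fatty acids (ENSMUSG00000018796), by 0.36 ± 0.38. Fads2, the delta-6 desaturase (ENSMUSG00000024665), was highest in HFD+L-NAME 3 and NO2-OA 5, at 19.97 and 14.3 TPM, like the platelet genes, and differed by -0.53 ± 0.55 (-1.15 ± 0.59 without Timd4 libraries). Xdh (ENSMUSG00000024066), xanthine oxidoreductase, had medians of 14.0 and 14.4 TPM and differed by 0.10 ± 0.37 (0.15 ± 0.44).

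Heat shock genes encode chaperones and are induced by HSF1 when proteins are damaged, by electrophiles among other causes. Of 19 tested members 16 lay above 0 with a median of 0.13, against 0.08 over all genes. Without the Timd4 libraries 2 lay above 0 with a median of -0.18, against -0.10 over all genes. The median of ratios gave -0.03, the same as over all genes. Hspa1a (ENSMUSG00000091971), the inducible Hsp70, was at 2878, 2585, 1738, 1527 and 405 TPM in HFD+L-NAME 1 to 5 and at 206.5 to 3400 TPM with NO2-OA (median 2214). Both groups overlapped almost fully, and NO2-OA 2 and HFD+L-NAME 5, the libraries with the least protein-coding TPM, were lowest. The difference was 0.14 ± 1.26, and -0.18 ± 0.73 without the Timd4 libraries. Its near-identical copy Hspa1b gave 0.15 ± 1.28, and reads may be split between them. Hsf1 (ENSMUSG00000022556) differed by 0.17 ± 0.37 (-0.04 ± 0.44).

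The unfolded protein response list, 26 tested, had 8 members above 0 and a median of -0.08 (3 above 0 and -0.27 without the Timd4 libraries). Asns (ENSMUSG00000029752), asparagine synthetase, a target of the stress factor ATF4, was its 1 member with an unadjusted p under 0.05. It was at 0.747, 0.843, 0.795, 1.82 and 0.463 TPM in HFD+L-NAME 1 to 5 and at 0.633 to 4.69 TPM with NO2-OA (median 1.71). The highest were NO2-OA 6 and 1, at 4.69 and 3.56 TPM, and NO2-OA 2, 3 and 4 lay within the HFD+L-NAME range. The difference was 0.63 ± 0.30 (limma, unadjusted p = 0.0442), and 0.47 ± 0.37 without the Timd4 libraries. Mthfd2 (ENSMUSG00000005667), a mitochondrial folate enzyme that ATF4 also drives, was likewise highest in NO2-OA 6 and 1, at 11.9 and 11.5 TPM, against 1.51 to 6.78 TPM in HFD+L-NAME. It differed by 0.74 ± 0.34 (unadjusted p = 0.039 in limma), and 0.47 ± 0.40 without the Timd4 libraries. Gpx1 (ENSMUSG00000063856), the glutathione peroxidase abundant in red cells, had the same top libraries, at 956 and 853 TPM, and differed by 0.48 ± 0.61 (0.36 ± 0.71).

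L-NAME, which both groups received, lowers nitric oxide, whose receptor is soluble guanylate cyclase. Of 18 tested genes of nitric oxide, arginine and cyclic GMP 8 lay above 0 with a median of -0.02, and 6 with a median of -0.17 without the Timd4 libraries. Gucy1b1 (ENSMUSG00000028005), the haem-binding subunit of the cyclase, was at 31.5, 72.5, 130, 30.6 and 7.10 TPM in HFD+L-NAME 1 to 5 and at 2.09 to 104 TPM with NO2-OA (median 34.0). The extremes again were those of the platelet genes, with a low end shared with other lists, as for Gclm. The difference was -0.38 ± 0.72 (-1.20 ± 0.76 without Timd4 libraries). Its partner Gucy1a1 differed by -0.49 ± 0.47 (-0.96 ± 0.52), and Pde5a, the cyclic GMP phosphodiesterase that sildenafil inhibits, by -0.29 ± 0.75 (-1.23 ± 0.78). Pde2a (ENSMUSG00000110195), a phosphodiesterase that cyclic GMP stimulates, departed from the platelet genes in HFD+L-NAME 3, where it was low at 4.21 TPM. It shared their low end, in HFD+L-NAME 5 and NO2-OA 2. It had medians of 5.65 and 9.16 TPM and a difference of 0.42 ± 0.38 (0.09 ± 0.43).

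Among cell type lists with at least 3 tested members the platelet, erythroid and peritoneal macrophage lists lay farthest from 0. All 19 platelet genes lay below 0 with a median of -0.57, and with a median of -1.40 without the Timd4 libraries. Without NO2-OA 2, the library with the fewest platelet transcripts, the median was 0.22, where that over all genes was 0.19. Ppbp (ENSMUSG00000029372), the platelet chemokine, was at 3297, 6743, 17640, 3269 and 831 TPM in HFD+L-NAME 1 to 5 and at 202 to 12030 TPM with NO2-OA (median 4350). The groups overlapped in all but HFD+L-NAME 3 and NO2-OA 2. Its difference was -0.50 ± 0.85 (-1.35 ± 0.94 without Timd4 libraries). Hbb-bs (ENSMUSG00000052305), adult beta globin, differed by 0.95 ± 1.01 (0.77 ± 1.06), with NO2-OA 1 at 148200 TPM. All 8 tested peritoneal macrophage genes lay below 0 with a median of -0.83, and 5 with a median of -0.29 without the Timd4 libraries. This list also holds F5 and Selp, which are expressed in platelets: F5 was at 1054 TPM in HFD+L-NAME 3, 819 TPM in NO2-OA 5 and 12.9 TPM in NO2-OA 2, against 284 and 82.4 TPM in HFD+L-NAME 1 and 5.

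Pan-T and NK cell lists lay above 0 with all libraries. Without those holding Timd4 the median over all genes was -0.10, and the pan-T list stayed above it while the NK list did not. Of 15 T cell genes 14 lay above 0 with a median of 0.41, where 64.7% of all genes lay above 0. Without the Timd4 libraries 8 did (53.3%) with a median of 0.00, where 29.8% of all genes lay above 0. Of 20 NK and cytotoxic genes 17 lay above 0 with a median of 0.34, and 3 (15%) with a median of -0.10 without the Timd4 libraries. Trac (ENSMUSG00000076928), the T cell receptor alpha constant region, was at 31.4, 61.0, 29.6, 93.0 and 18.1 TPM in HFD+L-NAME 1 to 5 and at 47.5 to 101 TPM with NO2-OA (median 57.6). HFD+L-NAME 1, 3 and 5 lay below every NO2-OA library and HFD+L-NAME 2 and 4 within them. The difference was 0.65 ± 0.43, and 0.18 ± 0.47 without the Timd4 libraries. Ikzf4 (ENSMUSG00000002578), the regulatory T cell factor Eos, was at 0.935, 0.967, 1.21, 6.37 and 0.399 TPM in HFD+L-NAME 1 to 5 and at 2.57 to 4.82 TPM with NO2-OA (median 3.51). HFD+L-NAME 4 lay above all NO2-OA libraries and the other 4 below them all. The regulatory T cell list had 7 of 8 members above 0 both with all libraries, with a median of 0.39, and without those holding Timd4, with a median of 0.16. For Ikzf4 the difference was 0.88 ± 0.38 (limma, unadjusted p = 0.028), and 0.50 ± 0.44 without the Timd4 libraries. For Foxp3, the lineage factor of these cells, it was 0.40 ± 0.27 (0.33 without Timd4 libraries).

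B cell genes lay near the median of all genes, with 12 of 16 above 0 and a median of 0.13, and 4 with a median of -0.03 without the Timd4 libraries. Cd79a (ENSMUSG00000003379), of the B cell receptor, differed by -0.03 ± 0.47. Igha (ENSMUSG00000095079), the constant region of IgA, was at 4.90, 6.35, 4.26, 5.39 and 0.475 TPM in HFD+L-NAME 1 to 5 and at 3.86 to 14.1 TPM with NO2-OA (median 8.81). NO2-OA 5 alone lay within the HFD+L-NAME range. The difference was 0.98 ± 0.44 (limma, unadjusted p = 0.0357), and 0.55 ± 0.41 without the Timd4 libraries, and chow held a mean of 20.6 TPM.

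Among classical monocyte genes 9 of 14 lay above 0 with a median of 0.29, and 10 with a median of 0.18 without the Timd4 libraries. Vcan (ENSMUSG00000021614), the proteoglycan versican of monocytes, was at 7.83, 7.41, 2.97, 14.7 and 1.17 TPM in HFD+L-NAME 1 to 5 and at 6.43 to 28.8 TPM with NO2-OA (median 11.5). NO2-OA 3 and 1 exceeded all HFD+L-NAME libraries and HFD+L-NAME 3 and 5 lay below all NO2-OA libraries. The difference was 1.14 ± 0.50 (limma, unadjusted p = 0.0324), and 0.79 ± 0.55 without the Timd4 libraries. Ccr2 (ENSMUSG00000049103), the receptor by which monocytes leave the marrow, differed by 0.73 ± 0.49 (0.57 ± 0.57). Fn1 (ENSMUSG00000026193), fibronectin, was at 390 and 378 TPM in HFD+L-NAME 1 and 5 and at 13.5 to 94.0 TPM elsewhere, so that its difference turned from -1.04 ± 0.80 to 0.35 ± 0.58 without them.

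Mature neutrophil genes turned in the same way, from 4 of 17 above 0 with a median of -0.27 to 14 above 0 with a median of 0.28 without the Timd4 libraries. Slpi (ENSMUSG00000017002), a leukocyte protease inhibitor, was at 380, 16.5, 74.4, 27.0 and 346 TPM in HFD+L-NAME 1 to 5 and at 12.2 to 63.9 TPM with NO2-OA (median 21.9). HFD+L-NAME 1 and 5 stood far above the rest. Its difference was -1.81 ± 0.74 (limma, unadjusted p = 0.0223), and -0.43 ± 0.58 without them. S100a9 (ENSMUSG00000056071), a calprotectin subunit, differed by -0.18 ± 0.79 (0.46 ± 0.71).

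**Figure D5:**
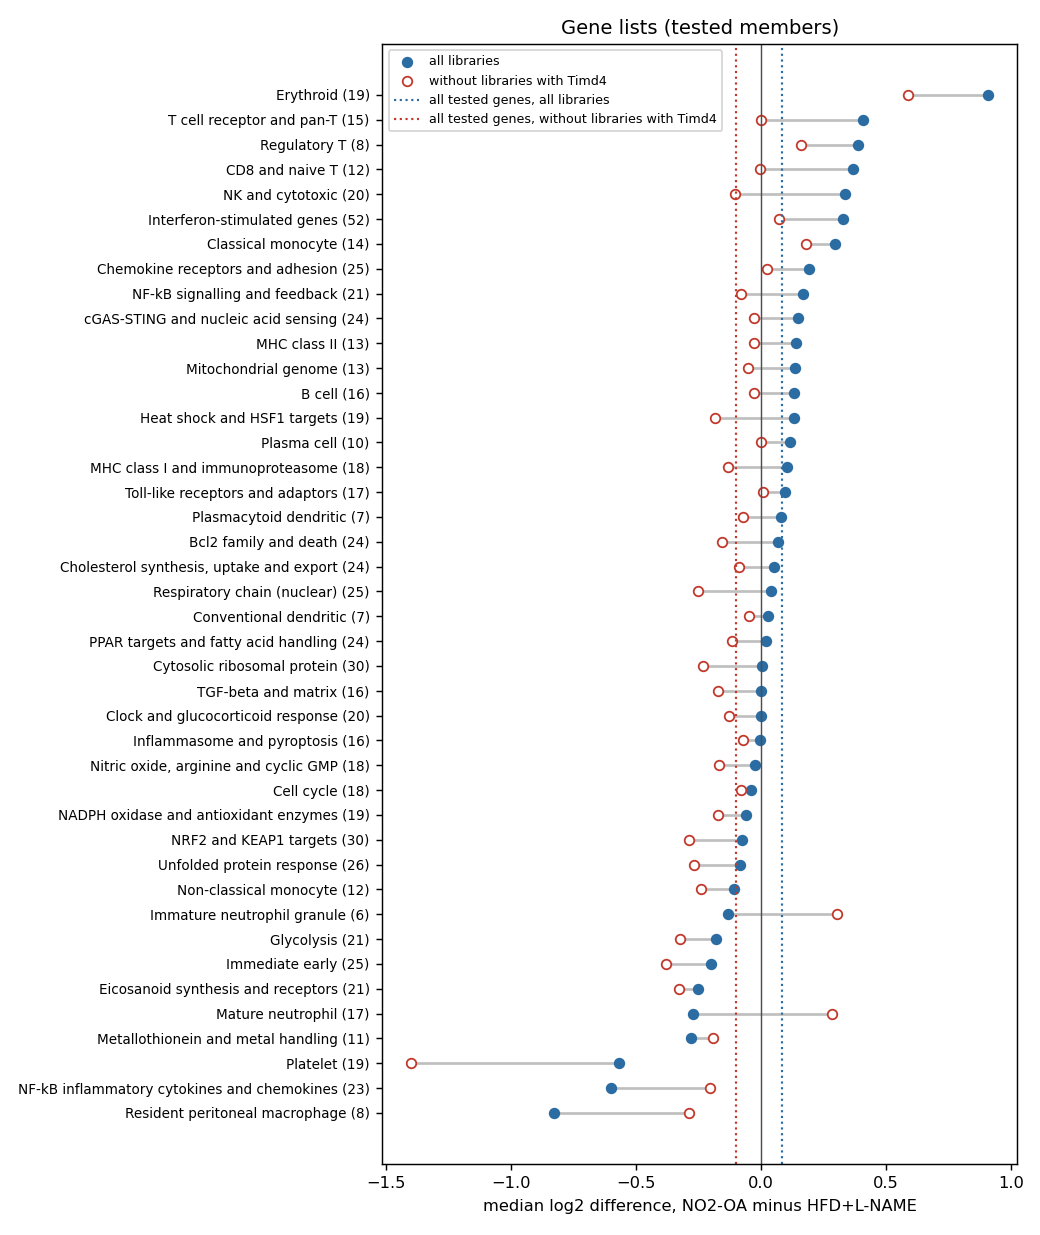
Median log2 difference, NO2-OA minus HFD+L-NAME, of the 42 gene lists with at least 3 tested members, filled with all libraries and open without those holding Timd4, with dotted lines for the median over all genes (0.08 and -0.10). Most lists shift left without the Timd4 libraries, and the platelet, erythroid, peritoneal macrophage and NF-kB cytokine lists lie farthest from the dotted lines with all libraries.

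Genes outside the pathways of nitro-fatty acids led the ranking by p. Pmp22 (ENSMUSG00000018217), a tetraspan membrane protein best known from myelin, was at 8.71, 3.62, 9.28, 2.61 and 11.4 TPM in HFD+L-NAME 1 to 5 and at 1.83, 0, 1.76, 3.09, 3.27 and 2.22 TPM in NO2-OA 1 to 6. Only HFD+L-NAME 4 lay within the NO2-OA range. The means were 7.11 ± 3.798 TPM (SD, n = 5) and 2.03 ± 1.18 TPM (n = 6), and the difference was -1.40 ± 0.41 (limma, unadjusted p = 0.00223). Without the Timd4 libraries it was -1.01 ± 0.44 (unadjusted p = 0.0315).

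H3c3 (ENSMUSG00000069310), a replication-dependent histone H3 gene with many near-identical copies, was at 12.0, 9.97, 9.98, 9.05 and 6.97 TPM in HFD+L-NAME 1 to 5 and at 3.45 to 7.84 TPM with NO2-OA (median 4.28). HFD+L-NAME 5 and NO2-OA 5 were the overlapping pair. The difference was -0.87 ± 0.34 with all libraries (limma, unadjusted p = 0.0187) and -0.89 ± 0.37 without the Timd4 libraries (unadjusted p = 0.0242). Reads shared with other histone H3 copies make the identity of the gene uncertain.

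Receptors of myeloid cells followed among the lower genes. C3ar1 (ENSMUSG00000040552), the receptor of complement C3a, had medians of 2.78 and 1.15 TPM and a difference of -1.09 ± 0.42 (limma, unadjusted p = 0.0146), which was -0.50 ± 0.36 without the Timd4 libraries. Olr1 (ENSMUSG00000030162), the receptor LOX-1 of oxidised LDL, was at 4.70, 4.202, 8.48, 10.1 and 18.8 TPM in HFD+L-NAME 1 to 5 and at 1.22 to 8.55 TPM with NO2-OA (median 3.73), and differed by -1.03 ± 0.47 (unadjusted p = 0.0369 in limma; -0.88 ± 0.46 without Timd4 libraries). The overlap lay in NO2-OA 2 and 5. Serpinb2 (ENSMUSG00000062345), plasminogen activator inhibitor 2, had medians of 42.4 and 10.6 TPM and differed by -1.78 ± 0.71 (-1.16 ± 0.77). Ccnd1 (ENSMUSG00000070348), cyclin D1, had medians of 4.68 and 1.80 TPM and differed by -0.92 ± 0.40 (-0.77 ± 0.48). In Serpinb2 and Ccnd1 NO2-OA 5 was the highest NO2-OA library, as in platelet genes. Within HFD+L-NAME, Ccnd1 was highest in HFD+L-NAME 3, at 7.12 TPM, again as in platelet genes. Serpinb2 went the other way there, with 65.3 and 47.8 TPM in the Timd4 libraries HFD+L-NAME 5 and 1. HFD+L-NAME 5 had the lowest platelet sum of that group.

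Among the higher genes, Tha1 (ENSMUSG00000017713), threonine aldolase, was at 2.64, 1.74, 0.993, 3.47 and 0.347 TPM in HFD+L-NAME 1 to 5 and at 2.73 to 6.44 TPM with NO2-OA (median 4.09). HFD+L-NAME 4 alone overlapped. The difference was 1.02 ± 0.37 (limma, unadjusted p = 0.0105), and 0.86 ± 0.43 without the Timd4 libraries (unadjusted p = 0.0551). Insl3 (ENSMUSG00000079019), an insulin-like peptide known as a testis hormone, was at 3.85, 1.53, 1.93, 2.94 and 0 TPM in HFD+L-NAME 1 to 5 and at 2.59 to 8.19 TPM with NO2-OA (median 5.36). NO2-OA 4 was the lowest of its group and lay below HFD+L-NAME 1 and 4. The difference was 1.15 ± 0.43 (unadjusted p = 0.0122 in limma), and 0.95 ± 0.43 without the Timd4 libraries (unadjusted p = 0.0384).

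Tnfsf8 (ENSMUSG00000028362), the CD30 ligand of activated T cells, had medians of 5.37 and 9.04 TPM and a difference of 0.88 ± 0.38 (limma, unadjusted p = 0.0301), which was 0.51 ± 0.43 without the Timd4 libraries. Slc15a2 (ENSMUSG00000022899), a peptide transporter, was at 23.7, 0.141, 2.84, 21.5 and 8.16 TPM in HFD+L-NAME 1 to 5 and at 7.86 to 36.9 TPM with NO2-OA (median 17.1). HFD+L-NAME 2 and 3 lay below every NO2-OA library and the other 3 within them. Its difference was larger without the Timd4 libraries, 1.98 ± 0.66 (unadjusted p = 0.00602 in limma), than with them, 1.30 ± 0.63 (unadjusted p = 0.0497).

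The medians of the remaining lists with at least 3 tested members ran from -0.28 for metallothionein and metal handling genes and -0.18 for glycolysis, where 17 of 21 lay below 0, to 0.19 for chemokine receptors and adhesion and 0.37 for CD8 and naive T cell genes. All 12 CD8 and naive T cell genes lay above 0 with all libraries. Without those holding Timd4 5 of them did (41.7%), with a median near 0 (-0.004), where 29.8% of all genes lay above 0 with a median of -0.10. Without the Timd4 libraries the medians were -0.19 for metallothionein and metal handling, -0.32 for glycolysis and 0.03 for chemokine receptors and adhesion. The basophil and mast cell list had 2 tested genes, both below 0, and the eosinophil list 1, also below 0. Cytosolic ribosomal protein genes had 16 of 30 above 0 with a median of 0.00, and 0 of 30 with a median of -0.23 without the Timd4 libraries. Nuclear-encoded respiratory chain genes had 14 of 25 above 0 with a median of 0.04, and 1 with a median of -0.25. Genes of MHC class II, antigen presenters for CD4 T cells, had 12 of 13 above 0 with a median of 0.14, and 4 with a median of -0.03. With the main settings no gene of any of the 44 lists was called in either direction.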

How the data were processed

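PBMC RNA was random-primed and sequenced, per the labels' protocols. Per the submitters' processing notes, the authors used HISAT2, featureCounts, Trim Galore and bcl2fastq, without versions, and the builds hg38 and mm39. The deposited values are TPM for 51179 mouse genes in 16 libraries; the annotation release and the TPM formula are not given in the sources used here. Low TPM values were whole multiples of 1 step per gene and library, from which whole reads were recovered (100% of values whole within 0.001); for a gene found in few libraries the true number may be a multiple of it. Gene lengths, the small nuclear RNA sequences and gene types came from GENCODE M21 (GRCm38), and promoters from RefSeq GRCm38.p6, neither of them the authors' build.

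Models in limma 3.58.1 (R 4.3.3) were fitted to log2(TPM + 1) with a mean for each of the 3 groups over the 16 libraries, a variance trend and two-sided tests, for genes with at least 1 TPM in at least 5 libraries. Calls had a p under 0.05 after Benjamini-Hochberg adjustment. Fold changes on this scale understate those of low genes and depend on the pseudocount. Differences were refitted without the libraries holding Timd4 at 1 TPM or more. Single values per library were compared by an exact permutation test over 462 assignments. Before use the procedure was tested on simulated data.

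Named genes were chosen from called genes, known targets of nitro-fatty acids, the 15 genes with the smallest p in each direction with a mean of at least 2 TPM (gene models, pseudogenes and receptor segments left out), and the 3 members of each of 44 lists with the smallest p or highest mean. Of these 250 genes some are named. The comparison, the lists and this rule were chosen with earlier results of these data known. Lists are described by counts and medians, beside those of all genes, with no test. Replicate numbers do not pair the libraries: of 5 same-numbered pairs 1 had deviations correlated above 0.1. The alternatives were 13 settings and leaving out each of 11 libraries, with 4 settings added after the data were seen. Tables were handled with Python 3.11.15, pandas 2.3.3 and Biopython 1.88.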

Additional observations from a re-analysis of the deposited data

Results flagged for a closer look

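In 18 of 150 groups of 5 or 6 libraries tested, the highest or lowest library lay apart from the others by Dixon's 95% limit. Chance alone gives about 1 in 20 for normally distributed values, which TPM need not be. For Cxcl1 and Gm23054 the other libraries were all at 0, so that any value above 0 is flagged. The groups are also not independent, since 12 of the 18 concern NO2-OA 2. The number flagged is therefore no measure of an excess over chance.

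NO2-OA 2, which had a low protein-coding share of TPM and the fewest platelet transcripts, lay below the other 5 NO2-OA libraries in 10 genes. Gclm stood there at 4.016 TPM against 32.5 to 84.1 TPM, and Taldo1 at 30.02 against 172 to 411 TPM. The ferritin genes Fth1 and Ftl1 were at 187.5 and 368.6 TPM against at least 721 and 1174 TPM. Alox12, a platelet lipoxygenase, was at 10.28 against 179 to 734 TPM. The Hsp70 copies Hspa1a and Hspa1b were at 206.5 and 246.5 TPM against at least 1963 and 2353 TPM. Pparg was at 0.9394 against 2.77 to 4.16 TPM, Cgas at 1.234 against 2.29 to 2.64 TPM and Pmp22 at 0 against 1.76 to 3.27 TPM.

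In 2 genes the same library lay above the others. Cxcl1 was at 0.9712 TPM against 0 in the other 5, and Lif at 1.568 against 0.0816 to 0.162 TPM. NO2-OA 6 stood out for Iigp1, at 3.556 against 1.51 to 1.77 TPM.

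Among HFD+L-NAME libraries, HFD+L-NAME 5 lay low in Acsl1 (2.295 against 6.44 to 8.19 TPM), in Igha (0.4755 against 4.26 to 6.35 TPM) and in the protein-coding share of TPM (15.08% against 40.7% to 49.8%). HFD+L-NAME 4 lay high in Ikzf4, at 6.372 against 0.399 to 1.21 TPM. HFD+L-NAME 1 was the only one with Gm23054, at 16.5 TPM against 0.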

How the results depend on the processing

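The number of genes called higher was 1 and of genes called lower 0. Higher calls were 2 without the Timd4 libraries, with a pseudocount of 0.1, with a filter at 5 TPM and with run as a covariate, 3 in run 1 alone (libraries below the gap in the library numbers), and 0 with no filter, the median of ratios, voom, protein-coding genes alone, a mean of at least 10 reads, or without libraries under 25% protein-coding TPM; with 1 library left out they ran from 0 to 4 higher and stayed at 0 lower. Gm25131 lost its call without HFD+L-NAME 3, 4 or 5, each at an unchanged log2 difference of 6.37, and with no filter (6.37), the median of ratios (6.39), without libraries under 25% protein-coding TPM (6.46) and in voom (1.72); the cause was not tested. Protein-coding genes alone and a mean of at least 10 reads leave out Gm25131 and Gm23054 before the test, so these settings cannot bear on their calls. Lower calls were 1 with no filter (Gm20690). Quality weights gave 243 higher and 217 lower calls, weighting HFD+L-NAME 1, a Timd4 library, by 8.60, and without the Timd4 libraries 5 higher and 10 lower. Ikzf4, of the regulatory T cell list, was among the genes called with quality weights and all libraries. The replicate block gave 1 higher call and 0 lower; the libraries share numbers but the numbers do not pair them, with correlations of deviations from -0.51 to 0.15.

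Of 1967 values of 71 genes under the alternatives, 121 had another sign than with all libraries and the main settings, 109 of them in genes within 1 SE of 0 there. The other 12 follow. Alox5 became 0.13 without the Timd4 libraries and 0.22 in run 1 alone, and Fn1 0.35 and 0.43. With quality weights Gucy1a1 became 0.0911 and Slc15a2 -0.0590. With quality weights and without the Timd4 libraries Sting1 became -0.0138, Pde2a -0.19, Ccr2 -0.12, Trac -0.16, Slpi 0.66 and Serpinb2 0.12. Depth limits genes of few reads, such as Gm25131.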
